A study of Mus musculus with 6 samples.

Results

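Aminoacyl-tRNA synthetases are the enzymes that load each amino acid onto its own tRNAs. They were followed here on 6 Affymetrix GeneChip arrays of mouse embryonic stem (ES) cells. A probe set counted as a member when its only gene symbol was a capital letter followed by ars, with or without a closing 1 or 2, or was Eprs, Farsa, Farsb or Tarsl2. The rule used names and no measured value. It found 73 of the 45037 probe sets tested and 36 of 18193 genes. Of these, 20 genes (41 probe sets) encode cytosolic enzymes. The other 16 genes (32 probe sets), whose symbols end in 2, encode mitochondrial ones. Tarsl2, a relative of the cytosolic threonine enzyme, was counted as cytosolic.

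The cytosolic synthetases supply charged tRNAs to the ribosomes that translate nuclear messages, while the mitochondrial ones are made in the cytosol and imported to charge the tRNAs of the organelle. Gars and Kars serve both places from 1 gene each, and Eprs joins the glutamate and proline activities in 1 protein. Mitochondria charge their glutamine tRNA by amidating a glutamate already attached to it, so that Qars has no mitochondrial counterpart. Several cytosolic synthetases (Eprs, Iars, Lars, Mars1, Qars, Rars and Kars) sit with the scaffold proteins Aimp1, Aimp2 and Eef1e1 in the multi-synthetase complex. When amino acids run short, uncharged tRNAs activate the kinase GCN2, and the transcription factor ATF4 raises many cytosolic synthetase genes together with genes of amino acid synthesis and uptake.

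The cells were clones of the ES line EBRTcH3 (EB3) with the coding sequence of human GTF2I, tagged with 3xFLAG, at the Rosa26 locus behind a promoter that tetracycline represses. GTF2I encodes the transcription factor TFII-I and lies in the chromosome region deleted in Williams-Beuren syndrome. Each of 3 clones (A1, B3 and C6) gave 1 uninduced array, with tetracycline present (0 h), and 1 induced array, taken 24 h after tetracycline was withdrawn, so each group held 3 arrays. Every clone carried the transgene and no array came from cells without it, so that the transgene and the withdrawal of tetracycline cannot be told apart, and each clone is a single line. The transgene is called GTF2I here after the sample titles, although a characteristics field names GTF2IRD2.

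Values are log2 intensities summarised by robust multiarray averaging (RMA). Array medians lay between 5.06 and 5.11, and array pairs correlated at 0.991 to 0.996. All 8 ES cell markers examined had a mean of at least 6 (median on each array 12.4 to 12.6), whereas 8 of 12 fibroblast markers and 9 of 11 differentiation markers had a mean under 6. The 2 arrays of clone A1 went against those of B3 and C6 over much of the array. Of 17168 probe sets averaging at least 6, A1 moved against both other clones in 60.3%, and the 3 clones moved the same way in 11.9%. Whether the 2 arrays of A1 carry each other's labels was not tested and cannot be settled from the labels. An exchange would turn the sign of every A1 difference given below, so that these differences follow the labels as they stand. Results are therefore given by clone, and with and without A1. All these values describe RNA from whole cultures, in which fewer cells of a type and less RNA per cell cannot be told apart.

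Each gene is described by its brightest probe set, meaning the highest average signal across the 6 arrays. That average lay between 6.40 and 11.96 for all 20 cytosolic genes. It lay between 5.13 and 9.52 for the 16 mitochondrial genes, of which Mars2 and Wars2 were under 6. Brightness depends on the probes as well as on the RNA, so that these levels are not compared between genes. Of the 73 probe sets, 58 averaged at least 6.

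The promoters of these genes were searched for the core of a sequence through which ATF4 acts. RefSeq promoter windows (GRCm38.p6, 250 bases before to 50 after the start site) were found for 27 of the 36 genes. The core TGATGNAA of the C/EBP-ATF element was searched on both strands. It was found in 5 of the 27 genes (18.5%), against 4.51% of 27025 genes with a window. All 5 were cytosolic and belonged to the 8 genes with a window in a list of synthetases known as ATF4 targets. None of the 5 other cytosolic and none of the 14 mitochondrial genes with a window held it. The following stretches, read 5′ to 3′ along each gene, are shown because they are the matches in these members, with the 8 bases of the element in capitals (in the reverse orientation for all but Yars).
Yars, tyrosine enzyme, chr4:129189895-129189924, + strand: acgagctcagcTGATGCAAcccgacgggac
Gars, glycine enzyme, chr6:55037960-55037989, + strand: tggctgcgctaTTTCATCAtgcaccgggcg
Iars, isoleucine enzyme, chr13:49682126-49682155, + strand: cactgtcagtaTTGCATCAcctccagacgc
Tars, threonine enzyme, chr15:11399655-11399684, - strand: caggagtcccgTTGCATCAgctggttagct

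Aars, the alanine enzyme, held 2 copies and is printed with its whole window. The capitals mark, in order, the E-box CACGTG and the 2 copies of the element in reverse. The E-box, a site that MYC and USF proteins can bind, was found in 5 of the 27 genes (Farsb, Ears2, Aars, Iars and Tars) and in 8.09% of all genes with a window. A match of letters is a description and no measure of binding.
Aars, chr8:111033592-111033891, + strand: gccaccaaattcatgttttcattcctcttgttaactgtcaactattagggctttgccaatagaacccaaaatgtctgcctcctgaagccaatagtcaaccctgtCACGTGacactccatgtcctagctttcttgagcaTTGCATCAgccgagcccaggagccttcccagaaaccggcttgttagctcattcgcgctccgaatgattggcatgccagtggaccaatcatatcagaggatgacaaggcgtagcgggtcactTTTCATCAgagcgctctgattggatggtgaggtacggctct

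The first comparison asks whether synthetase RNAs differed between induced and uninduced cells. No synthetase did by the test. Limma called 0 of 73 synthetase probe sets and 0 of all 45037 (0%), and 0 of 73 had an unadjusted p under 0.05 against 436 of 45037 (0.968%). The methods' t-test and limma with a variance trend also called 0. The differences were small and mostly downward. The brightest probe set was lower in induced cells in 30 of 36 genes (83.3%), against 9234 of 18193 genes (50.8%), with a median log2 difference of -0.09 for cytosolic and -0.09 for mitochondrial genes against a median near 0 for all genes. Over all 73 synthetase probe sets the share was 48 (65.8%), against 22401 of all 45037 (49.7%). For 29 of the 36 genes (80.6%) the 95% interval of the difference lay within 0.5 of 0 on the log2 scale. This was so in 80.0% of all genes and 74.0% of those with a mean of at least 6.

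The 4 members with the smallest p in this comparison were Cars, Lars2, Tars and Vars2. Cars, the cysteine enzyme, read 9.52 in A1, 9.65 in B3 and 9.73 in C6 before induction and 9.63, 9.29 and 9.35 after it. The difference was -0.21 ± 0.12 (SE), with a 95% interval of -0.49 to 0.07, and the groups overlapped because A1 was the higher array after induction. Tars, the threonine enzyme, read 10.98, 11.06 and 10.96 uninduced and 10.92, 10.84 and 10.84 induced in the same order of clones. Its groups did not overlap, but the distance between them was small (-0.13 ± 0.09, 95% interval -0.34 to 0.08).

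Lars2, the mitochondrial leucine enzyme, read 6.62, 6.27 and 6.26 uninduced and 6.19, 6.14 and 6.23 induced. Its groups also did not overlap, with most of the distance in A1, and the difference was -0.20 ± 0.12 (95% interval -0.48 to 0.08). The other probe sets of Lars2 differed within the 3 clones by -0.10, 0.04 and 0.04 and by 0.09, -0.10 and -0.43, so that the order of its arrays depended on the probe set. Tars and Lars2 were the 2 of 36 genes whose groups were apart, 5.56% against 3.26% of all genes and 1.09% of those with a mean of at least 6 (4.55% of all probe sets). Vars2, the mitochondrial valine enzyme, read 7.25, 7.57 and 7.75 uninduced and 7.43, 7.34 and 7.20 induced (-0.20 ± 0.14, 95% interval -0.53 to 0.13).

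This downward lean was unequal between the clones, with the induced array lower in 21 of 36 genes in A1, 23 in B3 and 27 in C6. Over cytosolic genes the median difference was -0.03 for A1, -0.00 for B3 and -0.12 for C6. Over mitochondrial genes it was 0.02, -0.09 and -0.20, while the median over all genes was near 0 in each clone. In both B3 and C6 the induced array was the lower one in 19 of 36 genes (52.8%), 8 of 20 cytosolic and 11 of 16 mitochondrial. The share was 31.4% of all genes and 35.9% of the genes with a mean of at least 6. Counted over all synthetase probe sets the lean was weaker. The induced array was lower in both clones in 28 of 73 (38.4%, against 29.1% of all probe sets) and higher in both in 18 (24.7%, against 31.3%). At the brightest probe set, all 3 clones moved the same way in 6 genes (Nars, Qars, Tars, Cars2, Lars2 and Pars2), always downward. This is 16.7% of the synthetases and 16.7% of all genes. Over all synthetase probe sets it was 10 of 73 (13.7%), against 18.8% of all probe sets. A1 moved against both others in 18 genes (50%), against 45.5% of all genes and 60.8% of those with a mean of at least 6.

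**Figure D1:**
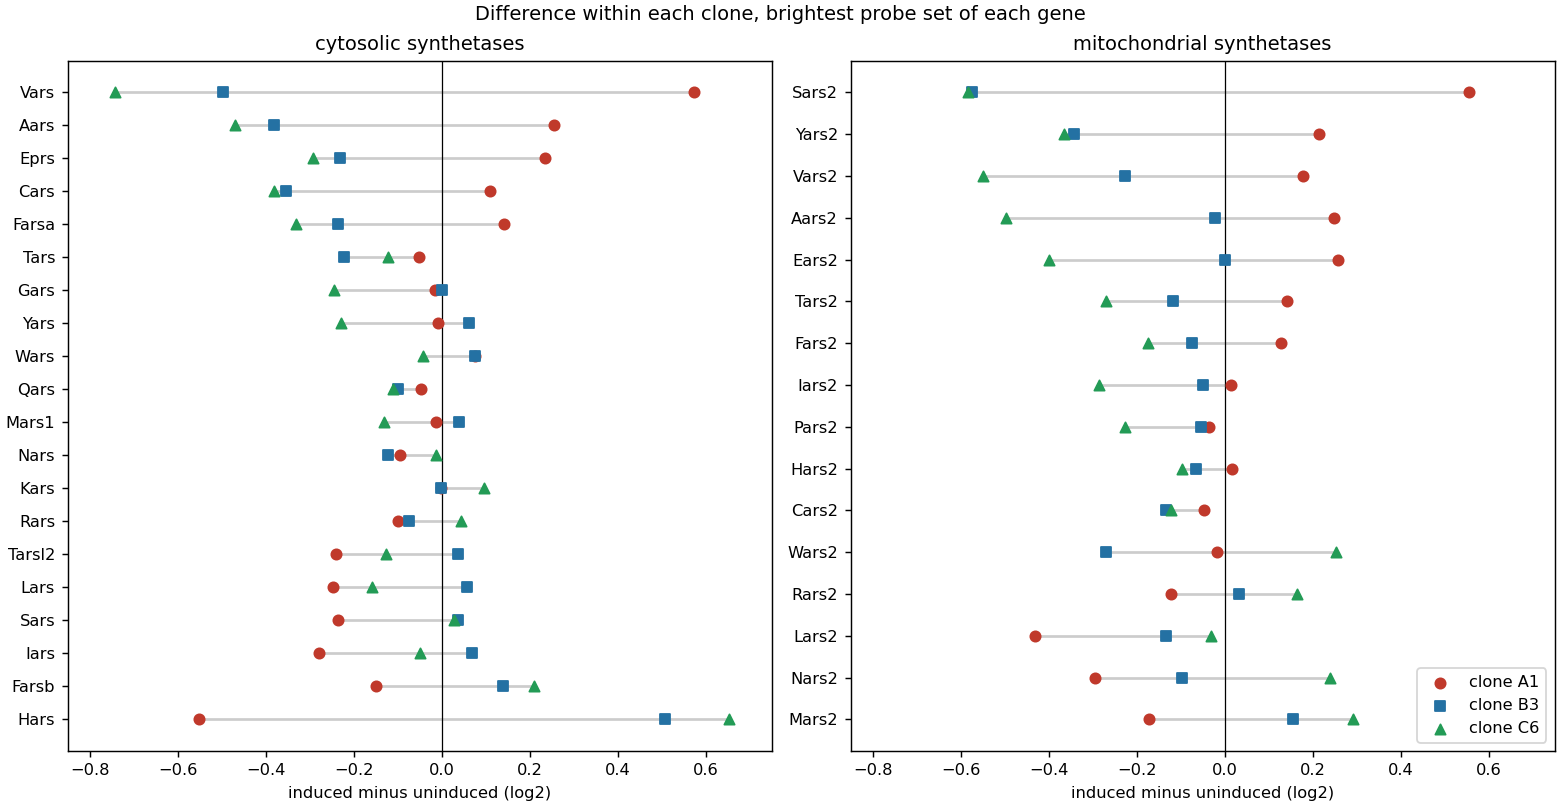
Induced minus uninduced log2 difference of the brightest probe set of each synthetase gene, 1 row per gene with 1 point per clone (circle A1, square B3, triangle C6) and a grey line over their range, ordered by the response of A1 against the other clones. Vars, Sars2 and Hars show the widest gaps, with A1 on one side of 0 and both other clones on the other.

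The response of A1 was then set against the mean response of B3 and C6. A1 was picked because it had been seen to run against the others, and the fit has 1 residual degree of freedom, so that its p-values depend on the spread borrowed across all probe sets. Limma called 3 synthetase probe sets: Hars was lower in the response of A1, and Vars and Sars2 were higher. These are 4.11% of 73, while 1219 of all 45037 probe sets were called (2.71%), 1.71% higher and 0.999% lower. Counted by the brightest probe set they are 3 of 36 genes (8.33%), against 2.68% of all genes and 4.54% of those with a mean of at least 6. With 3 calls neither share sets the synthetases apart from other genes.

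Hars, the cytosolic histidine enzyme, read 10.93 in A1, 10.59 in B3 and 10.50 in C6 uninduced, and 10.38, 11.09 and 11.15 induced. A1 was the highest clone before induction and the lowest after it. The group means, 10.67 ± 0.23 (SD, n = 3) and 10.87 ± 0.43 (SD, n = 3), hide differences of -0.55, 0.51 and 0.65 within the clones. The response of A1 lay below that of the others by -1.13 ± 0.19 (SE; limma, adjusted p = 0.0195). The second Hars probe set had the same sign but a smaller value: it read 9.37, 9.16 and 9.17 uninduced and 9.14, 9.22 and 9.14 induced, a response of -0.25 ± 0.18 (adjusted p = 0.56).

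Vars, the cytosolic valine enzyme, ran the other way. It read 9.40 in A1, 10.04 in B3 and 10.05 in C6 uninduced, and 9.97, 9.54 and 9.31 induced. Before induction A1 thus stood where B3 and C6 stood after it, and the reverse. The differences within the clones were 0.57, -0.50 and -0.74, and the response of A1 exceeded that of the others by 1.19 ± 0.20 (adjusted p = 0.0188). Vars has 1 probe set here.

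Sars2, the mitochondrial serine enzyme, read 7.80, 8.25 and 8.15 uninduced and 8.36, 7.68 and 7.56 induced. Its 2 sets of 3 arrays were apart in the same crossed arrangement as those of Vars. The differences were 0.56, -0.57 and -0.58, about 1.47-fold up in A1 and 1.49-fold down in B3, with a like value in C6. The response of A1 was higher by 1.13 ± 0.18 (adjusted p = 0.018). Sars2 too has 1 probe set. Sars, its cytosolic namesake, read 11.31, 11.22 and 11.16 uninduced and 11.07, 11.26 and 11.19 induced (-0.27 ± 0.18, adjusted p = 0.524).

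**Figure D2:**
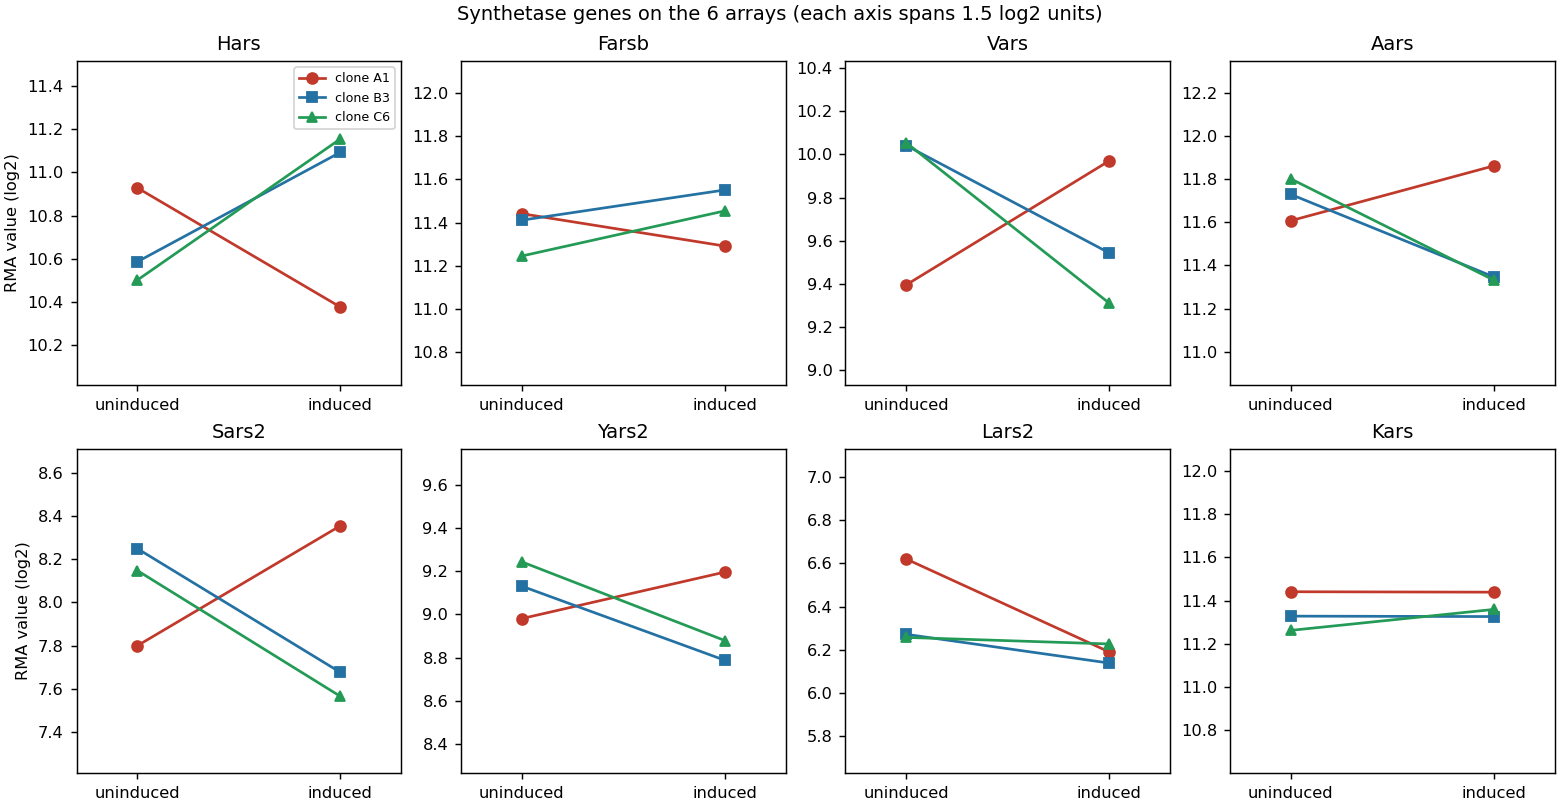
RMA log2 value of 8 synthetase genes (brightest probe set) before and after induction, 1 line per clone and every vertical axis spanning 1.5 log2 units. In Hars, Farsb, Vars, Aars, Sars2 and Yars2 the line of A1 crosses those of B3 and C6, whereas the 6 arrays of Kars lie within 0.2 of one another.

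Aars came next among the brightest probe sets. It read 11.61, 11.73 and 11.80 uninduced and 11.86, 11.35 and 11.33 induced, with A1 lowest before and highest after induction. The response of A1 was higher by 0.68 ± 0.18 (adjusted p = 0.0917), which passed at a threshold of 0.1, and at 0.05 when probe sets averaging under 6 were left out of the adjustment (adjusted p = 0.0339). The second Aars probe set ran the same way (0.14, -0.22 and -0.47). So did a probe set that names Aars together with Exosc6 and was not a member (0.39, -0.36 and -0.53).

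The remaining cytosolic genes named by rank did not pass. Eprs read 10.35, 10.55 and 10.61 uninduced and 10.59, 10.32 and 10.32 induced (0.50 ± 0.18, adjusted p = 0.205). Cars, given above, differed by 0.48 ± 0.18 (adjusted p = 0.223). Farsa, the catalytic subunit of the phenylalanine enzyme, read 10.28, 10.55 and 10.51 uninduced and 10.42, 10.31 and 10.17 induced (0.43 ± 0.18, adjusted p = 0.282). In Eprs, Cars and Farsa, as in Aars, A1 was the lowest array before induction and the highest after it.

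Farsb, which forms the other subunit of the phenylalanine enzyme, had the opposite sign to Farsa when the brightest probe sets were compared. It read 11.44, 11.41 and 11.24 uninduced and 11.29, 11.55 and 11.45 induced (-0.32 ± 0.18, adjusted p = 0.426). All 4 Farsb probe sets had a negative response in A1, from -0.60 to -0.23. The probe sets of Farsa did not share a sign. Of the 3 beside its brightest, which lay between -0.33 and 0.36, 2 were negative like Farsb. Iars read 10.84, 10.93 and 10.99 uninduced and 10.56, 11.00 and 10.94 induced (-0.29 ± 0.19, adjusted p = 0.495). Tarsl2 read 6.67, 6.14 and 6.55 uninduced and 6.43, 6.18 and 6.42 induced (-0.19 ± 0.19, adjusted p = 0.675). At the brightest probe set of both genes the largest step down was in A1. The second Iars probe set differed by 0.01, -0.18 and -0.10 in A1, B3 and C6, a response of the opposite sign (0.15 ± 0.18).

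Among the mitochondrial genes, Yars2, the tyrosine enzyme, read 8.98, 9.13 and 9.24 uninduced and 9.20, 8.79 and 8.88 induced (0.57 ± 0.18, adjusted p = 0.146). Vars2, given above, had a response of 0.57 ± 0.20 (adjusted p = 0.194). Aars2 read 7.73, 7.75 and 8.03 uninduced and 7.98, 7.73 and 7.54 induced (0.51 ± 0.23, adjusted p = 0.298). Ears2, the glutamate enzyme, read 7.53, 7.42 and 7.70 uninduced and 7.79, 7.42 and 7.30 induced (0.46 ± 0.22, adjusted p = 0.324). In Aars2 and Ears2 the B3 arrays hardly differed and the lower induced array was that of C6. The response of Lars2 was -0.35 ± 0.18 (adjusted p = 0.392).

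In 13 of the 36 genes (36.1%), 7 cytosolic and 6 mitochondrial, the uninduced A1 array and the induced B3 and C6 arrays stood apart from the other 3 arrays. This was so in 15.5% of all genes and 22.1% of those with a mean of at least 6.

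Without A1, and with the clone as a block, limma called the same 3 genes between induced and uninduced cells of B3 and C6. Hars rose by 0.58 ± 0.11 at its brightest probe set (SE; adjusted p = 0.0329, 95% interval 0.34 to 0.82). Its second probe set hardly differed in this fit (0.02 ± 0.11, 95% interval -0.22 to 0.26). Vars fell by 0.62 ± 0.11 (adjusted p = 0.0303) and Sars2 fell by 0.58 ± 0.11 (adjusted p = 0.0305). They are 3 of 73 synthetase probe sets, against 981 of 45037 (2.18%), 0.87% higher and 1.31% lower. This setting shares the arrays of B3 and C6 with the comparison of responses. It rests on 2 clones, and without the block no probe set was called. Aars (-0.43, adjusted p = 0.0799) and Cars (-0.37, adjusted p = 0.118) did not pass.

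The members were also grouped by function, and the counts below read against 50.8% of all genes lower in induced cells and 2.68% called in the response of A1 (4.54% of those averaging at least 6). Of the class I cytosolic genes, 9 of 10 measured were lower in induced cells and Vars was called in the response of A1. Of the class II genes, 7 of 10 were lower and Hars was called. The 7 measured enzymes of the multi-synthetase complex differed by -0.12 to 0.03 between induced and uninduced cells, with 6 lower. None of them was called in the response of A1 (-0.29 to 0.50). The list of the complex also held Dars, for which no probe set with that symbol alone was listed. Of the 13 cytosolic enzymes outside the complex, 10 were lower and Hars and Vars were called.

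The ATF4-linked list had 12 measured genes. Of these, 11 were lower in induced cells, with a median of -0.09, and 0 were called between induced and uninduced cells or in the response of A1. The other cytosolic list had 8, of which 5 were lower, and held both called genes. Both lists had a small median response in A1, 0.07 and -0.07. Of the 5 genes whose matches to the core of the element are printed above, Aars had the largest response. Iars (-0.29 at its brightest probe set, 0.15 at the second) and Tars (0.12 ± 0.18) have their values above. Gars differed by -0.01, 0.00 and -0.25 in A1, B3 and C6 and Yars by -0.01, 0.06 and -0.23.

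How a gene was read depended on its probe set. In 23 genes more than 1 probe set was present, 37 beside the brightest. Of these, 19 had a response of A1 of the opposite sign, as had 12 of the 24 with a mean of at least 6, and 12 of the 23 genes had such a probe set. In Yars2 the second probe set read 8.46, 8.10 and 8.07 uninduced and 8.03, 8.46 and 8.43 induced, a response of -0.79 ± 0.18 (adjusted p = 0.0568) against 0.57 at the brightest. In Fars2, the mitochondrial phenylalanine enzyme, they were 0.25 and -0.60. Both dimmer probe sets carry the suffix _x_at, which marks probes that can match other transcripts. It is carried by 8 synthetase probe sets, the brightest of Wars and of Farsb among them. In Eprs the other 3 probe sets lay between -0.30 and -0.12, and in Cars the second was at -0.37, against 0.50 and 0.48 at the brightest. Which probe set of a gene follows its RNA was not tested.

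**Figure D3:**
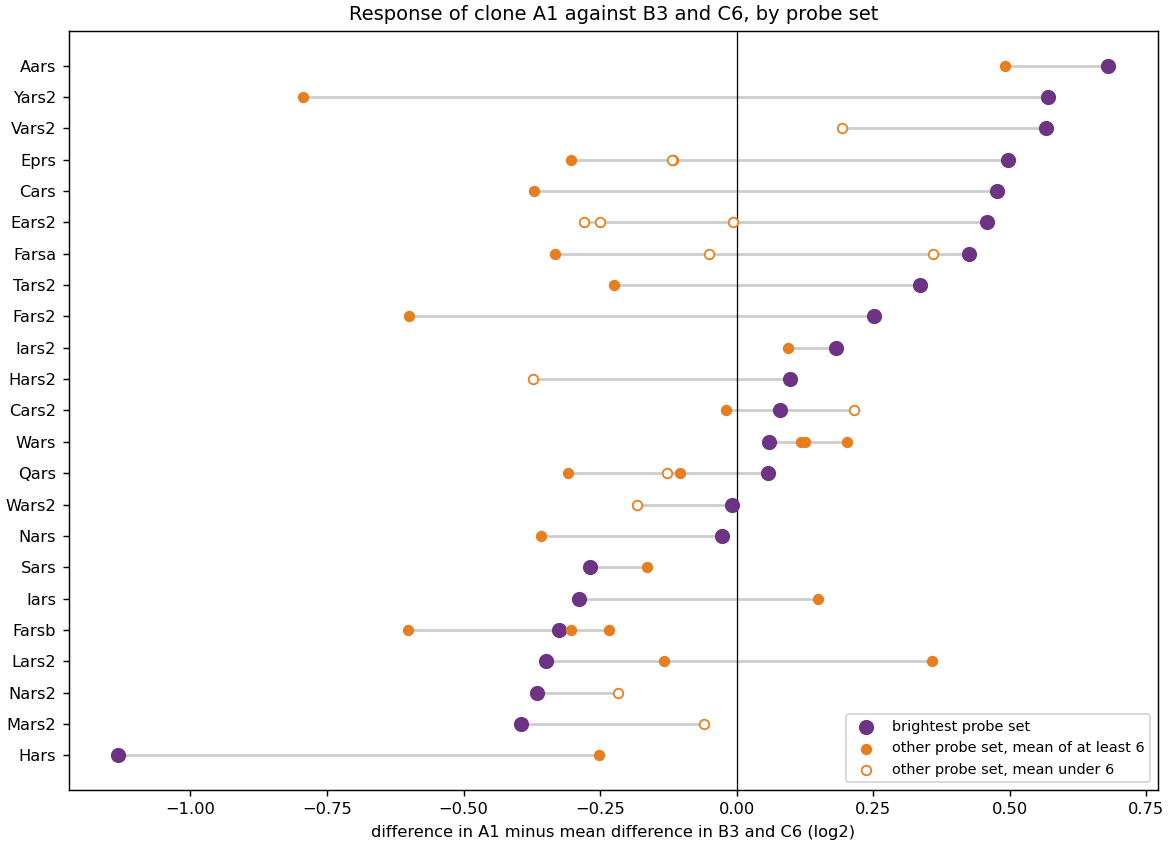
Response of A1 minus the mean response of B3 and C6 (log2) for every probe set of the 23 synthetase genes with more than 1, with large points for the brightest, filled small points for others with a mean of at least 6 and open points for those under 6. The probe sets of Wars, Farsb, Aars, Hars and Sars share a sign, while those of Yars2, Fars2, Cars and Eprs lie on both sides of 0.

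The level of a synthetase between clones was the third comparison, with induction state as a term. It gave 1 gene. Wars, the tryptophan enzyme and a known target of interferon, was low in B3 on both of its arrays. Its brightest probe set read 9.46 in A1, 8.61 in B3 and 9.36 in C6 uninduced, and 9.54, 8.69 and 9.32 induced. The B3 arrays lay below the other 4, and the step with induction was under 0.1 in every clone. The second probe set read 8.87, 7.99 and 8.72 uninduced and 8.93, 7.90 and 8.54 induced, and the third read 8.38, 7.69 and 8.40 and then 8.43, 7.65 and 8.30. The fourth read 8.18, 7.07 and 8.01 and then 8.15, 6.90 and 7.89. B3 was thus the lowest clone at all 4 probe sets in both states, although they may share parts of 1 transcript and are no replicates of one another.

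Wars was higher in A1 than in B3 by 1.81-fold at the brightest probe set (0.85 ± 0.11 on the log2 scale, 95% interval 0.58 to 1.12; limma, adjusted p = 0.0273). The other probe sets gave 1.94-fold, 1.66-fold and 2.27-fold (adjusted p = 0.0234, 0.0425 and 0.012). These 4, all of 1 gene, were the synthetase probe sets called between A1 and B3, against 1.25% of all probe sets, 0.99% in this direction. Counted by the brightest probe set this was 1 of 36 genes (2.78%), against 1.82% of all genes and 2.65% of those with a mean of at least 6. Between B3 and C6, the fourth was called (-0.97, adjusted p = 0.0406), against 0.295% of all probe sets, 0.238% in this direction, and the brightest differed by -0.69 (adjusted p = 0.0944). Between A1 and C6 the brightest differed by 0.17 (95% interval -0.10 to 0.44), and 0 synthetase probe sets were called, against 0.577% of all. Over the 3 clones together, the F test called 3 Wars probe sets and no other synthetase, against 1.13% of all probe sets. By the brightest probe set this too was 1 of 36 genes (2.78%), against 1.67% of all genes and 2.37% of those with a mean of at least 6.

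The Wars call depended on single arrays. Without the uninduced B3 array the difference between A1 and B3 was 0.82 (adjusted p = 0.46) and without the induced one it was 0.88 (adjusted p = 0.387). Without either array of C6 it was 0.85, as before, with an adjusted p of 0.0643. Without either array of A1 it was 0.88 (uninduced left out, adjusted p = 0.00961) and 0.82 (induced left out, adjusted p = 0.0112). The size of the difference thus held in all these settings, while the call was lost without an array of B3 or C6 and kept without an array of A1.

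**Figure D4:**
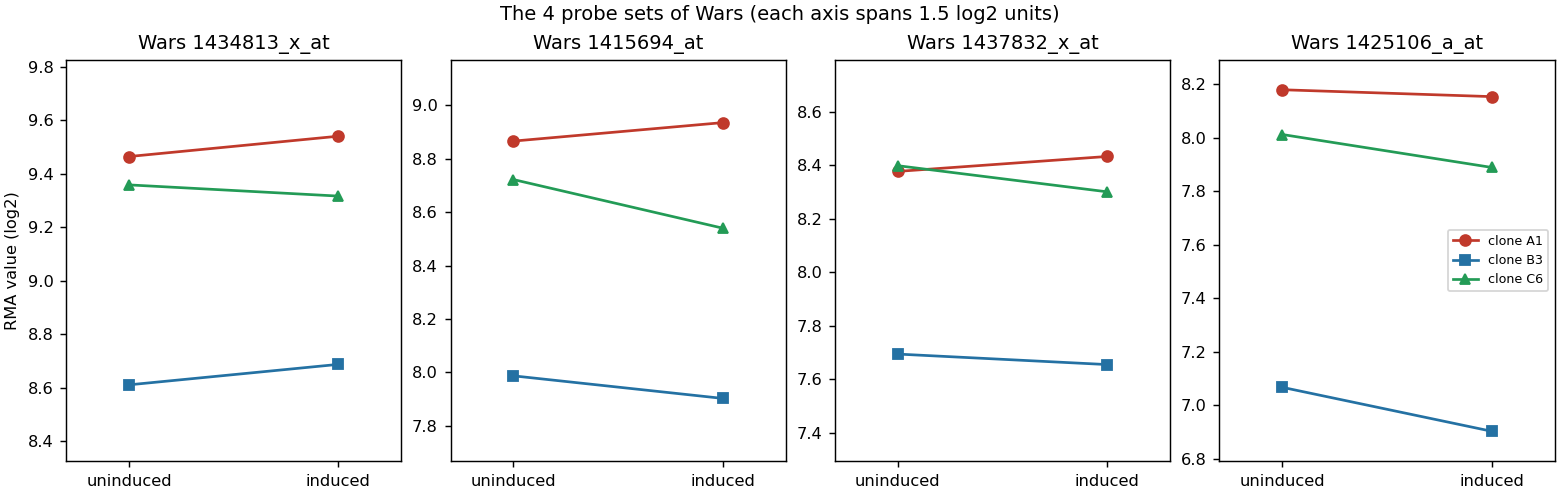
RMA log2 value of the 4 Wars probe sets before and after induction, 1 line per clone and every vertical axis spanning 1.5 log2 units. Both B3 arrays lie below all arrays of A1 and C6 in each panel, and the gap is wider than the step within any clone.

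Rars2, the mitochondrial arginine enzyme, had the next smallest p between clones, again with B3 lowest. It read 9.80, 9.13 and 9.61 uninduced and 9.67, 9.16 and 9.77 induced. A1 exceeded B3 by 0.59 ± 0.12 (adjusted p = 0.0944) and B3 lay below C6 by -0.55 ± 0.12 (adjusted p = 0.193). With a separate induction term for A1, an alternative chosen after the data were seen, Rars2 was called over the 3 clones beside all 4 Wars probe sets (adjusted p = 0.014), when 8.84% of all probe sets were. Iars2 read 8.20, 7.99 and 8.40 uninduced and 8.21, 7.94 and 8.12 induced, and A1 exceeded B3 by 0.24 (adjusted p = 0.435). Both B3 arrays were below the other 4 in 8 of 36 genes (Wars, Tarsl2, Cars2, Hars2, Iars2, Nars2, Pars2 and Rars2; 22.2%), against 13.8% of all genes and 20.2% of those with a mean of at least 6.

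The genes that work beside the synthetases were examined in the same fits, and their counts read against the same shares of all genes (50.8% lower, 2.68% called in the response of A1). Scaffold genes of the complex hardly differed: within the clones A1, B3 and C6, Aimp1 differed by 0.01, 0.09 and 0.05, Aimp2 by -0.02, -0.05 and -0.07, and Eef1e1 by -0.10, -0.02 and 0.14. Xpot, which exports tRNA from the nucleus, differed by -0.10, -0.14 and -0.06. Of 12 other tRNA genes measured, 6 were higher and 6 lower in induced cells and 0 were called in the response of A1. The nearest was Prorsd1, a relative of the editing domain of proline enzymes (-0.42, 0.41 and 0.34; response -0.79, adjusted p = 0.0584). Of 11 genes of mitochondrial tRNA processing and charging, 6 were higher, 5 lower and 0 called. Qrsl1 and Gatc, subunits of the amidotransferase that makes mitochondrial glutamine tRNA, differed by -0.01, 0.25 and 0.47 and by -0.00, 0.19 and 0.21.

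Of 9 cytosolic elongation and termination genes, 1 was called in the response of A1. This was Eef2, the translocase of the ribosome, which differed by 0.45, -0.33 and -0.60 (response 0.91 ± 0.20, adjusted p = 0.0471). Of 8 mitochondrial translation factors 0 were called. Gfm1, the mitochondrial counterpart of Eef2, had the opposite sign (-0.36, 0.34 and 0.51; response -0.79, adjusted p = 0.0651), while Tufm, an elongation factor of the same compartment, differed by 0.29, -0.17 and -0.35 (response 0.55, adjusted p = 0.178).

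The amino acid response list held 22 measured genes, 19 lower and 3 higher in induced cells, with 0 called there and 2 in the response of A1. Sesn2, an inhibitor of the growth kinase mTORC1, differed by 0.58, -0.47 and -0.57 (response 1.10 ± 0.18, adjusted p = 0.0201). Atf5, a transcription factor related to ATF4, differed by 0.43, -0.53 and -0.93 (response 1.16 ± 0.22, adjusted p = 0.0284). Slc7a5, a carrier of large neutral amino acids, differed by 0.33, -0.34 and -1.14 (response 1.07 ± 0.29, adjusted p = 0.0934), and Trib3, an ATF4 target, by -0.48, 0.05 and 0.21 (response -0.61 ± 0.19, adjusted p = 0.131). Atf4 itself differed by -0.14, -0.16 and -0.14 and Asns, the asparagine synthetase, by -0.11, -0.02 and -0.01. Of the 8 ES cell markers 1, Esrrb, was also called (0.51, -0.36 and -0.65; response 1.02, adjusted p = 0.0347), and its part in the responses of the synthetases was not tested.

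**Figure D5:**
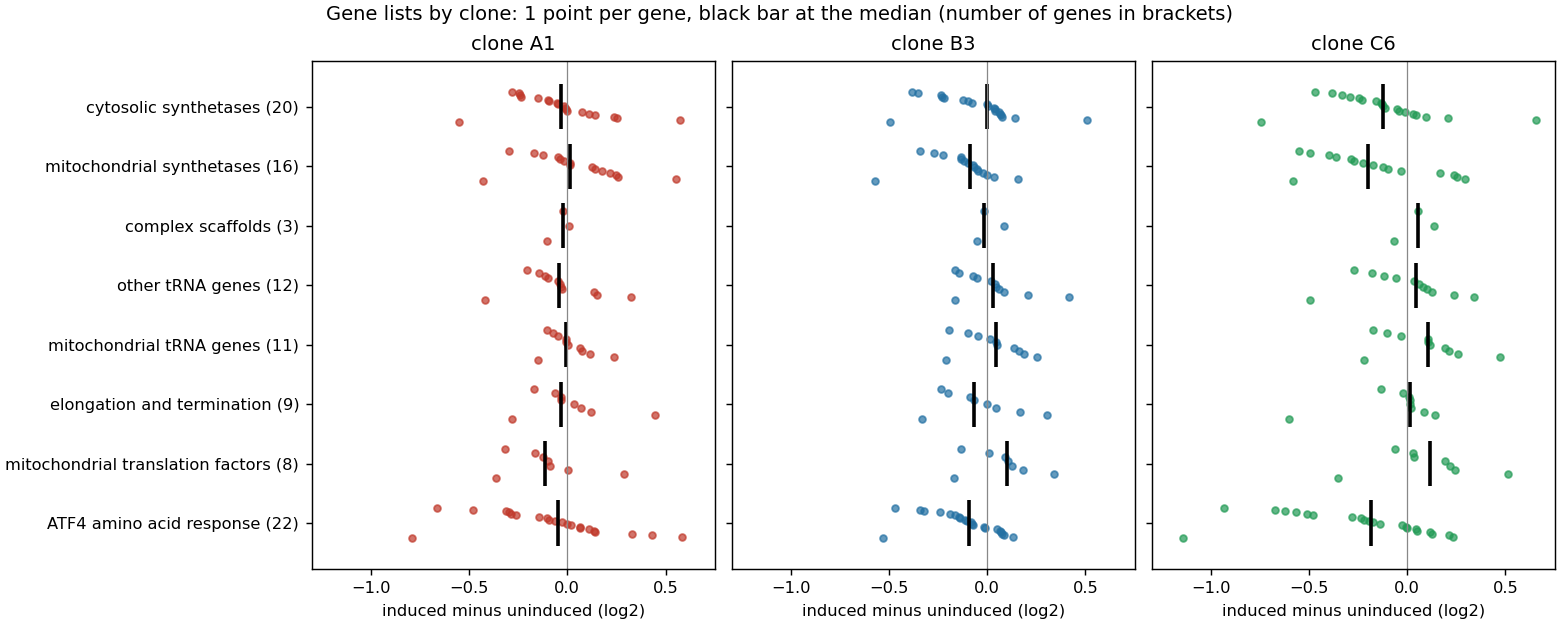
Induced minus uninduced log2 difference within clones A1, B3 and C6 for the synthetases and for the lists of genes that work beside them, 1 point per gene (brightest probe set) and a black bar at the median of each list, with the number of genes in brackets. The cytosolic and mitochondrial medians lie between -0.20 and 0.02, and the points of the ATF4 amino acid response list reach furthest below 0, in C6.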

How the data were processed

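Total RNA of 6 cultures was measured on Affymetrix GeneChip Mouse Genome arrays. The deposited log2 values were made by the authors with RMA (affy and RMA are the tools in the submitters' processing notes, where no version stands) and were used as they stood. After removal of 64 control probe sets from 45101, 45037 were tested. By the platform annotation 34945 of them bear 1 symbol, 932 bear several (never used for a name), and for 9160 no symbol was listed. Groups and clones came from the sample titles, and 0 columns belonged to no sample.

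The comparisons were fitted in limma 3.58.1 (R 4.3.3; lmFit and eBayes, two-sided, Benjamini-Hochberg over all 45037 probe sets, threshold 0.05): induced against uninduced without a block, as the methods name no pairing; the response of A1 against B3 and C6 on the 3 within-clone differences; and the level between clones with induction state as a term. With 3 arrays per group, limma was preferred to the t-test for each gene that the methods name, which was run as an alternative. The number of arrays limits the precision. Same-numbered arrays come from 1 clone and are paired by it. Their deviations from the mean of their group had a correlation of 0.190 (A1), 0.532 (B3) and 0.312 (C6). P-values of induced against uninduced without a block measure the spread between arrays that the labels describe as biological replicates. Those of the level between clones rest on how far the arrays of each clone depart from a common step with induction. Those of the response of A1, and of B3 and C6 with the block, rest on how the responses of B3 and C6 differ. Each clone gave 1 array per state, so these tests hold no replicate of a clone in the same state.

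The members and all lists were chosen with earlier results of these data known. Array values are given for Hars, Lars2, the 10 cytosolic and 6 mitochondrial genes with a mean of at least 6 and the smallest p in the response of A1, and the 4 with the smallest p in each other comparison. Up to 4 genes per list were named by the same p, with Aimp1, Aimp2, Eef1e1, Xpot and Atf4 always. Asns, Chac1 and Esrrb, and the probe sets beside the brightest, were picked after their values were seen. Alternatives covered the block, arrays and clones left out, normalization, filters, the variance model and the threshold. The scripts were tested on simulated data. Promoter windows came from RefSeq (GRCm38.p6); sequences of genes without a window, and protein sequences, were not used here.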

Additional observations from a re-analysis of the deposited data

Results flagged for a closer look

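In 3 synthetase genes the response to induction differed between clones by the test of that difference, against 2.68% of all genes and 4.54% of those with a mean of at least 6, so that the count by itself says little about synthetases. A1 was set against the others after it had been seen to run opposite, and whether its 2 arrays carry each other's labels was not tested. The brightest Hars probe set had a response in A1 below the mean of B3 and C6 by -1.13 on the log2 scale. A1 went down there and both other clones went up, while at the second probe set B3 and C6 differed by 0.07 and -0.03. Vars had a response in A1 that lay above theirs by 1.19, and Sars2 by 1.13, with A1 up and both other clones down. Each difference kept its sign against B3 alone and against C6 alone, values that have no test.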

How the results depend on the processing

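Induced against uninduced gave 0 calls, and 0 among the synthetases, under all alternatives run except that without A1 and with the replicate block, which gave 981 calls and 3 synthetase probe sets. With the replicate block on all 3 clones, which the clone pairing allows, 0 were called, and the block changed no other call; without B3 or without C6, with the block, 0 were called. In the response of A1, 1219 calls became 2642 at an adjusted p of 0.1, 2355 under a filter on the mean (at least 6) and 458 when each gene kept 1 probe set. At 0.1 the 3 synthetase calls became 5 of 73, beside those 2642 of 45037. Under the mean filter they became 7 of 58, beside those 2355 of 17168. Between clones, 509 calls became 1104 at 0.1, 108 under the mean filter, 1026 without induction state and 3982 with the A1 term, and lay between 11 and 3838 when single arrays were left out. The 3 synthetase calls there became 1 under renewed quantile normalization, the mean filter, 1 probe set per gene and a variance trend, 5 with the A1 term, and 0 to 7 with an array left out, the remaining array of that clone being assumed to vary like the others. The median differences, -0.09 for cytosolic and -0.09 for mitochondrial genes, stayed below 0. With an array left out they lay between -0.13 (without induced A1) and -0.04 (without uninduced A1) and between -0.15 (without induced A1; -0.14 without uninduced B3) and -0.03 (without induced B3 or uninduced C6). Without both arrays of C6 they were -0.06 and -0.02, and without those of A1 -0.06 and -0.13, and over all probe sets of a gene they were -0.05 and -0.03; no called value changed sign. Among the values of single genes, 14 passed the threshold under an alternative alone, and 4, all of Wars between A1 and B3, lost it. The causes of these changes were not tested.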

Other observations

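Chac1, which degrades glutathione and is an ATF4 target, passed the test of level between clones (limma F test, adjusted p = 0.0466). It was 1 of 22 measured genes of the amino acid response list, against 1.67% of all genes called and 2.37% of those with a mean of at least 6. Within A1, B3 and C6 it differed by -0.66, -0.14 and -0.51 between induced and uninduced arrays.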
